A study of Mus musculus with 6 samples.

Results

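Glul, Oat, Axin2, Lgr5, Tbx3, Rgn, Slc1a2, Rhbg, Rnf43 and Znrf3 were examined as genes of the pericentral hepatocyte program and of its Wnt signal. They were chosen by name, with no threshold on a measured value, although earlier results of these data were known, and all 10 were found by symbol among the 21362 genes of the FPKM table and by gene ID in the transcript files. All 10 also passed the filter on low counts, which left 13431 genes for testing. The livers came from 6 Mettl14f/f males that carried floxed alleles of Mettl14, a subunit of the writer of N6-methyladenosine (m6A) on mRNA. HFD began at 8 weeks of age and lasted 10 weeks before an AAV8 vector was given through the tail vein, AAV8-TBG-Cre to 3 males (Cre livers) and AAV8-TBG-GFP to 3 (GFP livers), and livers were harvested 8 weeks later. The labels call the GFP livers WT and the Cre livers METTL14 KO, although both groups carry the floxed alleles, the diet and an AAV8 vector. The TBG promoter restricts Cre to hepatocytes, so Mettl14 in the other cells of the liver stays intact. Each library is 1 liver, and bulk RNA-seq of whole liver was measured, so fewer cells of a type and less RNA per cell cannot be told apart.

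Hepatocytes divide their work along the lobule, from the portal vein to the central vein. Endothelial cells of the central vein secrete Wnt ligands and R-spondins, and the hepatocytes nearest to them respond through β-catenin. Those pericentral hepatocytes capture glutamate and ammonia and make glutamine, whereas periportal hepatocytes make urea and glucose. R-spondins bind LGR receptors and hold back the ubiquitin ligases RNF43 and ZNRF3, which otherwise remove Frizzled receptors from the cell surface, and AXIN2 is a feedback inhibitor within the pathway.

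The libraries held 20356459 to 21010524 expected counts. Mettl14 stood at 6.30, 6.43 and 5.81 CPM (counts scaled to library size, TMM-normalized throughout) in GFP livers and at 4.96, 5.38 and 4.86 CPM in Cre livers. Its log2 fold change was -0.28 (SE 0.15, adjusted p = 0.337, edgeR quasi-likelihood test with Benjamini-Hochberg adjustment), so every direction below rests on the labels. Defining hepatocyte markers were abundant in every liver, with a summed level of 90580 to 130400 CPM over 8 markers. Markers of other cells differed between the vectors. The 9 cholangiocyte markers summed to 73.6 to 130 CPM in GFP livers and 312 to 588 CPM in Cre livers, a sum that is mostly Spp1. Of these markers 9 of 9 rose at the unadjusted threshold described below. Of 10 macrophage markers 7 rose (summed level 254 to 294 against 398 to 614 CPM) and of 10 stellate cell markers 4 rose (243 to 371 against 471 to 980 CPM). These 4 were Pdgfrb and the collagen genes Col1a1, Col1a2 and Col3a1. The stellate markers Lrat (log2 fold change -0.25), Reln (-0.105) and Acta2 (-0.37) were negative and not called. Of 10 endothelial markers 1 fell (242 to 411 against 262 to 309 CPM), and none of these marker genes was at 0 in all livers. Of 4 tested T, NK and B cell markers 2 rose and 1 fell, of 4 tested neutrophil markers 3 rose and 1 fell, and of the 8 hepatocyte markers 1 rose and 1 fell. Over all tested genes 12.0% were called higher and 8.41% lower at that threshold. The library names have 2 forms that the labels do not explain. Names of 2 digits belong to GFP replicates 1 and 2 and to Cre replicate 1, names of 4 digits to GFP replicate 3 and to Cre replicates 2 and 3.

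Pericentral enzymes were the most abundant of the 10 genes, and Axin2, Lgr5 and Znrf3 the least. Per transcript length, Glul led in the GFP livers at 597 ± 64.8 FPKM (SD, n = 3), followed by Rgn at 436 ± 89.8 and Oat at 346 ± 39.2 FPKM. Slc1a2 came next at 39.3 ± 7.70 FPKM, then Tbx3 at 12.0 ± 2.19, Rhbg at 7.68 ± 0.52 and Rnf43 at 6.26 ± 1.12 FPKM. Axin2 at 2.69 ± 0.34, Lgr5 at 2.27 ± 0.73 and Znrf3 at 2.04 ± 0.36 FPKM formed the low end, 1.32-fold apart at most. The values of Rgn and Oat overlapped between those neighbours, as did those of Rhbg and Rnf43, of Axin2 and Lgr5, and of Lgr5 and Znrf3. In the Cre livers Glul (394 ± 162 FPKM), Rgn (407 ± 91.9 FPKM) and Oat (475 ± 173 FPKM) all overlapped.

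In Cre livers, 2 of the 10 genes were lower and 8 did not pass the threshold. Glul and Slc1a2, which capture ammonia and glutamate, had the lower levels, and the Wnt feedback genes Axin2, Rnf43 and Znrf3 had small positive log2 fold changes that did not pass. The threshold was the one of the study, an unadjusted p under 0.05 with a fold of at least 1.2, here from the edgeR quasi-likelihood test. At that threshold 20.5% of all tested genes were called, 12.0% higher and 8.41% lower, so 2 of 10 is about the share over all genes. By the adjusted p under 0.05 none of the 10 was called by edgeR, where the share over all genes was 0.931%. DESeq2 called Glul and Slc1a2 by its adjusted p as well, with 7.44% of all genes called. Of the 10 log2 fold changes 5 were positive and 5 negative, with a median of -0.05 against -0.01 over all tested genes. CPM ranges of the vectors stood apart for 2 of the 10 genes and for 27.0% of all tested genes, while FPKM ranges overlapped for all 10. The higher cholangiocyte and macrophage markers and the 4 higher stellate cell markers moved with the same vector. Their part in the lower Glul and Slc1a2 was not tested.

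**Figure D1:**
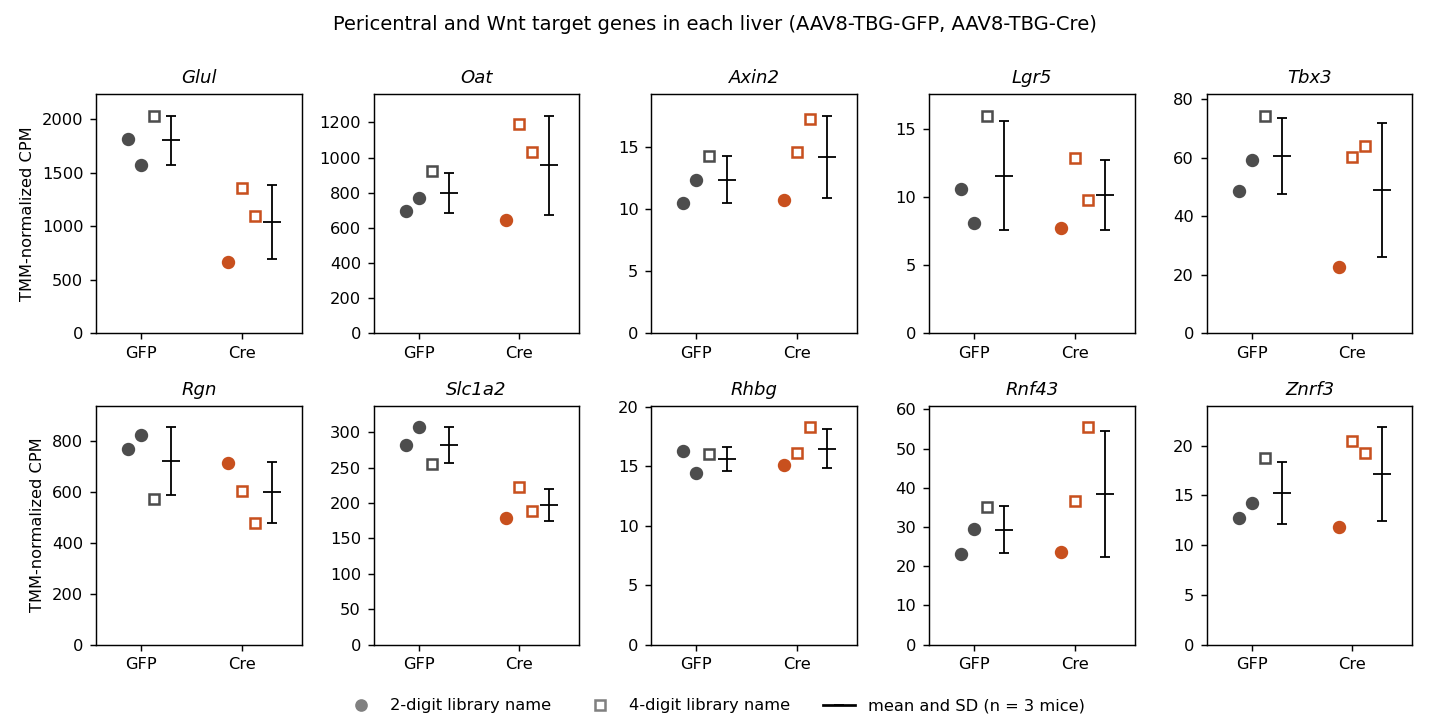
TMM-normalized CPM (vertical axes, from 0) of the 10 genes in each of 6 livers, with GFP livers in grey and Cre livers in orange; filled circles are libraries with 2-digit names, open squares those with 4-digit names, and bars show the mean and SD of 3 mice. Glul and Slc1a2 are lower in all Cre livers, while the other 8 genes overlap between the vectors and Cre replicate 1 is the lowest liver for 6 of the 10.

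Glul encodes glutamine synthetase, the classic marker of the hepatocytes that line the central vein (chromosome 1, 153899929 to 153909723, mm10 as GRCm38.p6). Its level was 1812, 1571 and 2027 CPM in the GFP livers and 665, 1354 and 1098 CPM in the Cre livers. All Cre livers lay below all GFP livers, and Cre replicate 1 lay far below the rest. The fold was 1.74 lower in Cre livers, a log2 fold change of -0.80 (SE 0.27, 95% confidence interval -1.42 to -0.17, unadjusted p = 0.0195, adjusted p = 0.159, edgeR). An exact two-sided permutation test gave p = 0.1, the smallest that 3 against 3 allows. On the FPKM scale the vectors overlapped, as Cre replicate 2 at 561 FPKM lay above GFP replicate 2 at 525 FPKM. Without GFP replicate 3 the log2 fold change was -0.71 with an unadjusted p of 0.0569 (edgeR), and without Cre replicate 1 it was -0.56, still called. DESeq2 gave an adjusted p of 0.0340, and over the 16 alternative settings the adjusted p ranged from 0.0340 to 0.334.

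Slc1a2 encodes the glutamate transporter GLT-1, known for glutamate uptake by pericentral hepatocytes (chromosome 2, 102658239 to 102790784). The GFP livers held 282, 307 and 256 CPM and the Cre livers 179, 222 and 189 CPM. These groups did not overlap in CPM, and Cre replicate 1 was again the lowest. On the FPKM scale they overlapped, as Cre replicate 2 at 37.4 FPKM lay above GFP replicate 3 at 31.1 FPKM. The log2 fold change was -0.52 (SE 0.14, 95% confidence interval -0.84 to -0.20), a level 1.43-fold lower in Cre livers. The unadjusted p was 0.00592 and the adjusted p 0.0975 (edgeR), and the exact two-sided permutation p was 0.1. The call held in each of the 6 fits that left out 1 liver, with log2 fold changes of -0.62 to -0.45. DESeq2 gave an adjusted p of 0.0112, within a range of 0.0112 to 0.411 over the alternatives. A RefSeq transcript of 10998 bases carried 81.0% to 88.5% of the expected counts of the gene in every liver, and one of 2127 bases carried 11.5% to 19.0%.

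The difference of both genes depends on how libraries are scaled. FPKM values set the median gene 0.11 higher in Cre livers on the log2(FPKM + 1) scale, against -0.01 after TMM. On that scale limma gave log2 fold changes of -0.68 for Glul (unadjusted p = 0.0512, limma) and -0.35 for Slc1a2 (unadjusted p = 0.114, limma), and neither was called. After each library was centred on its median, an alternative added after the data were seen, limma called both again at the unadjusted threshold, where 17.0% of all genes were called.

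Promoter sequence of the 2 genes that were lower is shown because a TCF/LEF factor, the partner of β-catenin, binds the core CTTTGA, which lies within the longer form CTTTGAT. RefSeq windows of GRCm38.p6, from 250 bases before to 50 bases after a start site, were at hand for Glul, Slc1a2, Oat, Axin2 and Rnf43 (2 windows), which makes 6 windows of 300 bases for 5 of the 10 genes. Capitals mark CTTTGA or its reverse complement TCAAAG, and both strands were searched. The Slc1a2 window lies at chr2:102706188-102706487 on the plus strand, and the Glul window at chr1:153899679-153899978 on the plus strand. The start site of the Slc1a2 window, 102706438, lies inside the gene, which begins at 102658239, and the transcript that starts there is not given here. The Glul start site, 153899929, is the beginning of its gene.
Slc1a2: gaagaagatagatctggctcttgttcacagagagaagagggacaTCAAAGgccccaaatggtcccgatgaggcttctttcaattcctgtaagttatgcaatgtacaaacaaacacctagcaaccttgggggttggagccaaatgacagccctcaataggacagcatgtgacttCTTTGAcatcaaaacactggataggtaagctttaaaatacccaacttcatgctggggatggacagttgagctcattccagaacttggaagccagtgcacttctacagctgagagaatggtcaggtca
Glul: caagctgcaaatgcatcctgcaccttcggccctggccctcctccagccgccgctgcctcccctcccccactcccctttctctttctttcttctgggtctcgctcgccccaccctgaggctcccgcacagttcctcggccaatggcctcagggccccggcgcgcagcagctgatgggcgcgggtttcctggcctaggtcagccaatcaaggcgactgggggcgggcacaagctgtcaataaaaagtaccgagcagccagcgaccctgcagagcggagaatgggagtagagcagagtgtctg
The Slc1a2 window held the core at positions -206 and -77 from the start site, and the first of these was part of the longer form. The Glul window held none, nor did those of Oat, Axin2 and Rnf43. Among 32851 RefSeq promoter windows of the same length 16.0% held CTTTGA and 3.73% held CTTTGAT on either strand, against 1 of the 6 windows for each form, and a match in letters is not a measured site.

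The other pericentral enzymes and transporters among the 10 genes, Oat, Rgn and Rhbg, overlapped between the vectors. Oat, ornithine aminotransferase, which feeds ornithine carbon toward glutamate (chromosome 7, 132557475 to 132576398), measured 697, 770 and 921 CPM in GFP livers and 645, 1192 and 1030 CPM in Cre livers. The lowest and the highest liver were thus both Cre livers, replicates 1 and 2. Its log2 fold change was 0.26 (SE 0.25, 95% confidence interval -0.31 to 0.83, adjusted p = 0.588, edgeR), and without Cre replicate 1 it was 0.48 and called at the unadjusted threshold (unadjusted p = 0.0315, edgeR). Rgn encodes regucalcin, a calcium-binding gluconolactonase (chromosome X, 20549766 to 20562089). Its level was 768, 826 and 573 CPM in GFP livers and 716, 604 and 477 CPM in Cre livers. GFP replicate 3 lay below Cre replicates 1 and 2, and the log2 fold change of -0.27 (SE 0.21, 95% confidence interval -0.76 to 0.22, adjusted p = 0.511, edgeR) was not called. Rhbg, an ammonia channel of the Rh family (chromosome 3, 88242874 to 88254739), had the smallest SE of the 10 genes. It stood at 16.3, 14.4 and 16.1 CPM in GFP livers and at 15.1, 16.1 and 18.3 CPM in Cre livers. The log2 fold change was 0.08 (SE 0.12, 95% confidence interval -0.20 to 0.36, adjusted p = 0.746, edgeR), or -0.002 without Cre replicate 3, and the interval bounds a change in either direction.

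Tbx3 encodes a T-box transcription factor of pericentral hepatocytes (chromosome 5, 119670534 to 119684724), and its value in Cre livers turned on 1 liver. It measured 48.6, 59.2 and 74.3 CPM in GFP livers and 22.5, 60.2 and 64.2 CPM in Cre livers. Cre replicate 1 stood apart from 5 livers of 48.6 CPM or more. The log2 fold change was -0.31 (SE 0.36, 95% confidence interval -1.15 to 0.53, adjusted p = 0.675, edgeR) and 0.03 without that liver. The longer of its 2 RefSeq transcripts, of 4783 bases, took 28.1%, 35.9% and 36.3% of the gene's expected counts in GFP livers. In Cre livers it took 31.3%, 59.5% and 37.6%, so the transcripts changed rank only in Cre replicate 2.

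Lgr5, the R-spondin receptor that marks the innermost pericentral hepatocytes (chromosome 10, 115450314 to 115587780), was expressed at a low level. It measured 10.6, 8.11 and 16.0 CPM in GFP livers and 7.73, 12.9 and 9.82 CPM in Cre livers. The highest value, in GFP replicate 3, and the lowest, in Cre replicate 1, framed values that overlapped. The log2 fold change was -0.19 (SE 0.28, 95% confidence interval -0.84 to 0.46, adjusted p = 0.748, edgeR), and its sign turned to 0.11 without GFP replicate 3 and to 0.006 on log2(FPKM + 1).

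The 3 negative regulators of the Wnt pathway had positive log2 fold changes that did not pass the threshold. Axin2, a scaffold of the β-catenin destruction complex that the pathway itself induces (chromosome 11, 108917828 to 108950783), stood at 10.5, 12.4 and 14.3 CPM in GFP livers and at 10.7, 14.7 and 17.3 CPM in Cre livers. Both Cre replicates 2 and 3 were above all controls while replicate 1 was near the lowest of them, and the log2 fold change was 0.20 (SE 0.20, 95% confidence interval -0.26 to 0.66, adjusted p = 0.615, edgeR). Rnf43 (chromosome 11, 87663087 to 87735539) had 23.1, 29.5 and 35.1 CPM in GFP livers and 23.5, 36.6 and 55.4 CPM in Cre livers. The order was the same as for Axin2, with a log2 fold change of 0.40 (SE 0.30, 95% confidence interval -0.29 to 1.09, adjusted p = 0.498, edgeR), which was 0.65 and called without Cre replicate 1 (unadjusted p = 0.0218, edgeR). Znrf3 (chromosome 11, 5276329 to 5444847) measured 12.8, 14.2 and 18.8 CPM in GFP livers and 11.8, 20.5 and 19.3 CPM in Cre livers. Its log2 fold change was 0.17 (SE 0.23, 95% confidence interval -0.37 to 0.72, adjusted p = 0.724, edgeR). Rnf43 overlaps a noncoding gene, 1110028F11Rik, with 13 to 48 expected counts of its own in a liver against 455 to 1152 for Rnf43, and the sources used here do not say that counting was strand-specific.

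For the form of the library name, 8 of the 10 genes were called. In a fit with both terms, the coefficient for the name was read after the data were seen. By that coefficient, 7 genes were higher with 4-digit names (Glul, Oat, Axin2, Lgr5, Tbx3, Rnf43 and Znrf3) and Rgn was lower, at the unadjusted threshold. CPM of Glul (1349 ± 605 with 2-digit, 1493 ± 480 with 4-digit names) and Lgr5 overlapped between the forms. Those of Oat, Axin2, Tbx3, Rnf43, Znrf3 and Rgn stood apart. The share of all tested genes that stand apart by the form of the name is not given here, so this count has no background beside it. The only Cre liver with a 2-digit name was replicate 1, the lowest Cre liver for 9 of the 10 genes. Over all tested genes 15.9% were called for the name, 8.11% higher and 7.79% lower. None of the 10 had an adjusted p under 0.05 for it (1.39% of all genes, edgeR), and the median log2 difference was 0.56 against 0.01 over all genes. Tbx3 had the largest difference at 0.95 (SE 0.23, adjusted p = 0.0964, edgeR), and Znrf3 at 0.61 (SE 0.12) had the smallest adjusted p, 0.0634 (edgeR). Znrf3 stood at 12.9 ± 1.23 CPM in the livers with 2-digit names and at 19.5 ± 0.86 CPM in those with 4-digit names (SD, n = 3 each). Slc1a2 at -0.00 (SE 0.15) and Rhbg at 0.13 (SE 0.12) were not called for it. What the names stand for is not given in the sources used here, and their part in these differences was not tested. Endothelial markers moved with the form of the name as well, with 7 of 10 lower in livers with 4-digit names and a summed level of 242 to 295 CPM there against 309 to 411 CPM in those with 2-digit names, and their part in the differences of the 8 genes was not tested.

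**Figure D2:**
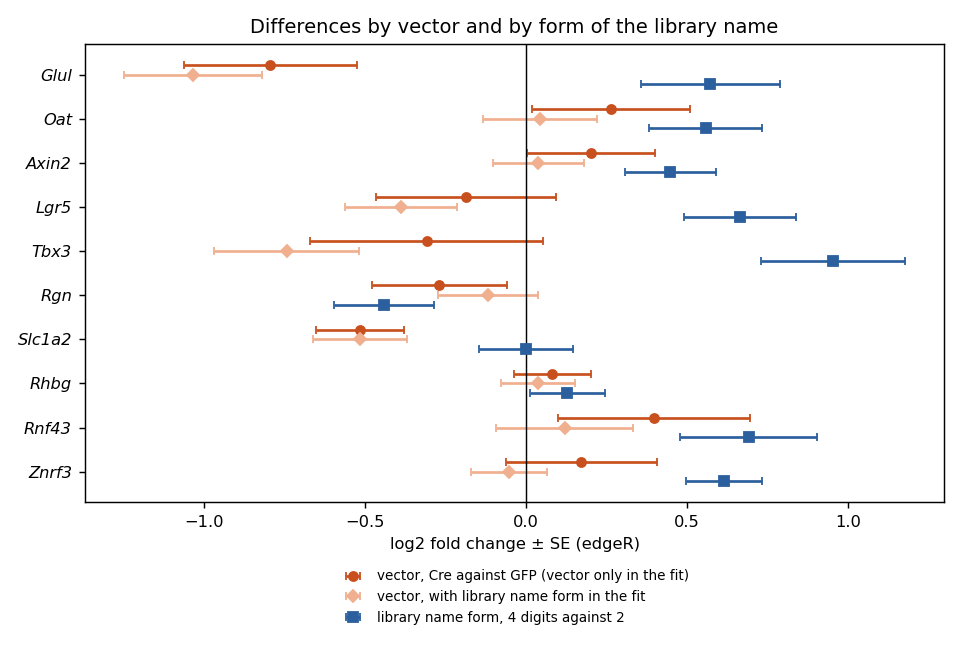
log2 fold change with SE (horizontal axis, edgeR, 6 livers) of the 10 genes for the vector alone (orange circles), for the vector with the form of the library name in the same fit (light diamonds) and for 4-digit against 2-digit names (blue squares). The name differences of Glul, Oat, Axin2, Lgr5, Tbx3, Rnf43 and Znrf3 lie to the right of 0, the vector differences of Glul and Slc1a2 lie to the left in both fits, and that of Tbx3 moves from -0.31 to -0.74.

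With the form of the name in the fit, the vector differences of Glul and Slc1a2 stood and Tbx3 joined them. Glul had a log2 fold change of -1.04 (SE 0.22, adjusted p = 0.0654, edgeR), Tbx3 of -0.74 (SE 0.23, adjusted p = 0.136) and Slc1a2 of -0.52 (SE 0.15, adjusted p = 0.121). These 3 of 10 genes were called at the unadjusted threshold, where 19.4% of all genes were called with that fit, and none was called by the adjusted p (1.59% of all genes, edgeR). Within each form of name, where 1 group has 1 liver and no separate test was run, Glul was lower in Cre livers by a log2 ratio of mean CPM of -1.35 among 2-digit and -0.72 among 4-digit names. Slc1a2 was lower by -0.72 and -0.32, and Tbx3 by -1.26 and -0.26. Axin2 had -0.09 and 0.16, Oat -0.19 and 0.27, Rnf43 -0.16 and 0.39, Znrf3 -0.20 and 0.08, and Rhbg -0.03 and 0.10, so these 5 genes differed in sign between the forms. The sign of the Znrf3 vector difference also turned, to -0.05, in the fit with both terms.

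Cre replicate 1 was the lowest of the 6 livers for 6 of the 10 genes, where it was the lowest for 14.1% of all tested genes. It was the lowest of the 3 Cre livers for 9 of the 10, all but Rgn, against 36.0% of all tested genes. The same liver was the lowest for 8 of 14 other pericentral genes and the highest for 10 of 12 periportal genes, against 13.5% of all genes for the latter. Sds, serine dehydratase, a gene chosen here after its values were seen, stood at 434 CPM in that liver and 55.3 to 151 CPM in the other 5. Cre replicate 2 took the other end, as the lowest liver for 7 of 12 periportal genes (24.9% of all genes). The 12 periportal genes together held 19220 CPM in Cre replicate 1, 9427 CPM in replicate 2 and 13690 CPM in replicate 3, which frames the 9947 to 13330 CPM of the GFP livers. The 10 pericentral and Wnt target genes together held 3612 to 3952 CPM in GFP livers and 2296, 3533 and 2978 CPM in Cre livers, a sum that is mostly Glul, Oat and Rgn.

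**Figure D3:**
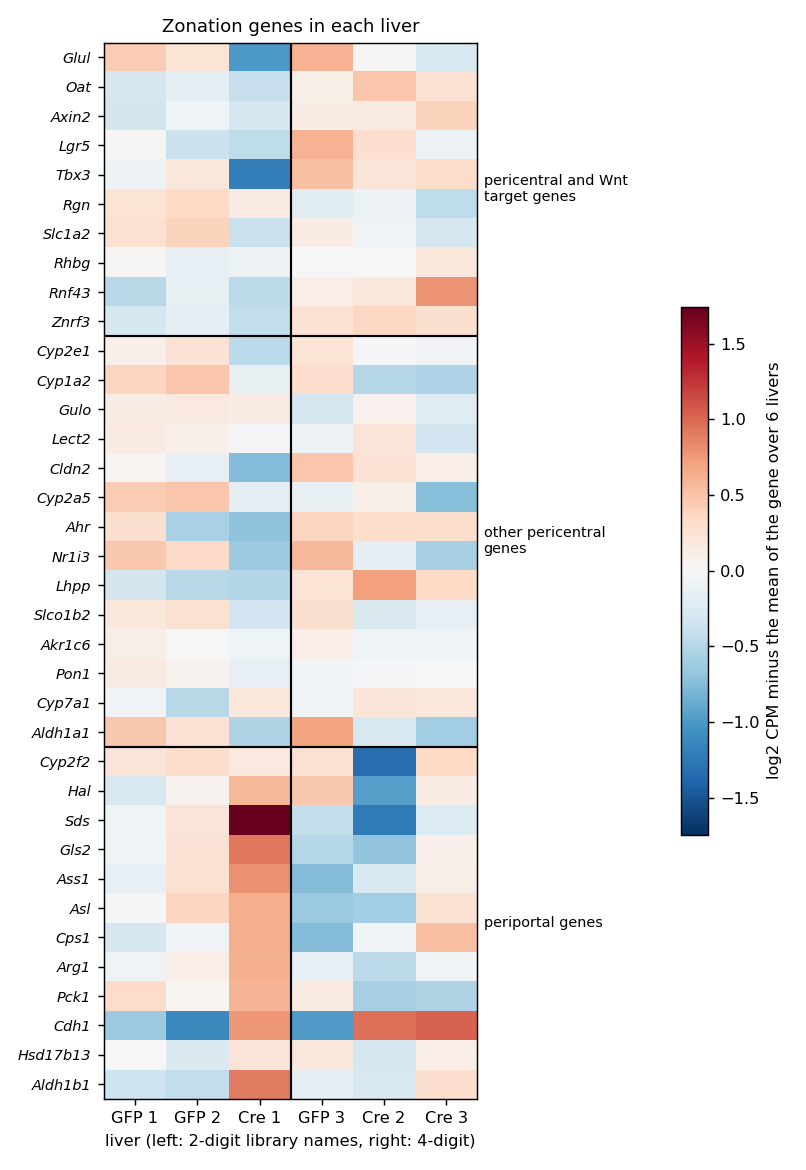
log2 CPM of each gene (rows) minus its mean over 6 livers, by liver (columns, GFP and Cre with the replicate number), with 2-digit library names left of the vertical line and 4-digit names right of it; red is above and blue below the mean of the gene. The column of Cre replicate 1 is blue for most pericentral genes and it is the highest liver for 10 of 12 periportal genes.

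Of 14 other pericentral hepatocyte genes 4 fell and 1 rose in Cre livers at the unadjusted threshold, against 8.41% of all tested genes lower and 12.0% higher, with a median log2 fold change of -0.18. Nr1i3, which encodes the xenobiotic receptor CAR, fell from 165 to 194 CPM in the GFP livers to 84.7 to 117 CPM, a log2 fold change of -0.90 (SE 0.15, adjusted p = 0.0491, edgeR). In this fit it was the only pericentral gene of either list with an adjusted p under 0.05, and that call held in 1 of the 6 fits that left out 1 liver (adjusted p = 0.0363 to 0.166, edgeR). Aldh1a1, a retinal dehydrogenase, fell from 1486 to 2014 CPM to 823 to 1034 CPM (log2 fold change -0.94, SE 0.19, unadjusted p = 0.00107). Cyp1a2, a cytochrome P450 of drug and caffeine metabolism, fell from 437 to 499 CPM to 245 to 325 CPM (log2 fold change -0.77, SE 0.15, unadjusted p = 0.00121). The other fall was Slco1b2 (-0.49) and the rise was Cyp7a1 (0.37), the rate-limiting enzyme of bile acid synthesis, whose call was lost in 4 of the 6 fits without 1 liver and with the form of the name in the fit. In the fit with the form of the name 5 of these 14 genes were lower and none higher, where 19.4% of all genes were called. Their median was -0.36 in that fit, and Cyp1a2 (adjusted p = 0.0491, edgeR) and Aldh1a1 (adjusted p = 0.0468, edgeR) passed by the adjusted p as well. DESeq2 gave adjusted p-values of 8.22e-05 for Cyp1a2, 2.84e-06 for Aldh1a1 and 0.000368 for Slco1b2. The median was -0.03 on log2(FPKM + 1).

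Ccnd1 and Cd44 were higher among a list of other Wnt feedback and general target genes. Of the 10 listed, 8 passed the filter on low counts, and 2 rose and none fell in Cre livers. Over all tested genes 12.0% were called higher and 8.41% lower. Of the 8 log2 fold changes 6 were positive and 2 negative. Ccnd1, cyclin D1, measured 64.3, 43.9 and 83.1 CPM in GFP livers and 80.2, 189 and 239 CPM in Cre livers (log2 fold change 1.41, SE 0.40, unadjusted p = 0.00812). Cd44, a hyaluronan receptor that leukocytes and bile duct cells also express, went from 7.90 to 10.2 CPM to 16.1 to 36.0 CPM (log2 fold change 1.38, SE 0.32, unadjusted p = 0.00288). Tcf7, a TCF factor, had a log2 fold change of 0.53 that did not pass (unadjusted p = 0.0670, edgeR). The rise of Cd44 stands beside the higher macrophage and cholangiocyte markers given above, and their part in it was not tested. For the form of the name 4 of the 8 were higher, Ccnd1 among them, and none lower, against 8.11% of all tested genes higher and 7.79% lower.

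Among the ligands and the receptors of the pathway, 1 gene of each passed the threshold in Cre livers. Over all tested genes 12.0% were called higher and 8.41% lower, so such counts are not set apart from those of all genes. Of 10 Wnt and R-spondin ligands 6 passed the filter, and 1 rose. Wnt4 went from 2.65 to 4.32 CPM to 4.01 to 6.86 CPM (log2 fold change 0.67, SE 0.28, unadjusted p = 0.0470), whereas Wnt5a (0.75, unadjusted p = 0.138) and Wnt2 (-0.43, unadjusted p = 0.320, edgeR) did not pass. Wnt2 is, with Wnt9b and Rspo3, a signal of the central vein endothelium, and 8 markers of those cells summed to 19.8 to 40.8 CPM in GFP livers and 29.5 to 34.2 CPM in Cre livers, with none called. Of 10 receptors 9 were tested and 1 rose, Fzd5 (log2 fold change 0.51, SE 0.19, unadjusted p = 0.0282, edgeR), and the calls of Wnt4 and of Fzd5 were each lost in 4 of the 6 fits without 1 liver. With the form of the name in the fit neither was called (unadjusted p = 0.101 for Wnt4 and 0.0674 for Fzd5, edgeR), and Wnt4 was not called with the replicate block either. Fzd1 (0.35, unadjusted p = 0.0897) and the co-receptor gene Lrp6 (-0.26, unadjusted p = 0.0616, edgeR) did not pass.

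Within the cell, 2 of 15 pathway genes rose and 1 fell, where 12.0% of all tested genes were called higher and 8.41% lower. Bcl9, a coactivator of β-catenin, rose from 6.86 to 8.82 CPM to 11.8 to 12.0 CPM (log2 fold change 0.63, SE 0.14, unadjusted p = 0.00219), and its partner Pygo2 rose by a log2 fold change of 0.49 (SE 0.20, unadjusted p = 0.0375). Gsk3a, a kinase of the destruction complex, fell by 0.28 on the log2 scale (SE 0.09, unadjusted p = 0.0154). Of 12 secreted or surface inhibitors 4 were tested, 2 rose and 1 fell, beside the same shares over all genes. Dkk3 went from 2.30 to 2.96 CPM to 4.68 to 10.0 CPM (log2 fold change 1.37, SE 0.30, unadjusted p = 0.00218), Frzb had 0.87 (SE 0.30, unadjusted p = 0.0204) and Kremen1 -0.50 (SE 0.14, unadjusted p = 0.00863). Dkk3 and Frzb are also made by stellate cells and fibroblasts, whose markers are given above, and the part of those cells in these values was not tested. Without 1 liver the calls of Pygo2 (4 of 6 fits), Frzb (3 of 6) and Gsk3a (1 of 6) were lost. With limma on FPKM the call of Gsk3a was lost with and without centring on the median. That of Kremen1 was lost there without centring, and that of Pygo2 with centring. None of the ligand, receptor, intracellular or inhibitor genes had an adjusted p under 0.05 in edgeR. DESeq2 gave adjusted p-values of 0.014 for Bcl9 and 0.00278 for Dkk3, where it called 7.44% of all genes. Those of Wnt4, Fzd5, Pygo2, Gsk3a, Frzb and Kremen1 were above 0.05 with DESeq2.

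**Figure D4:**
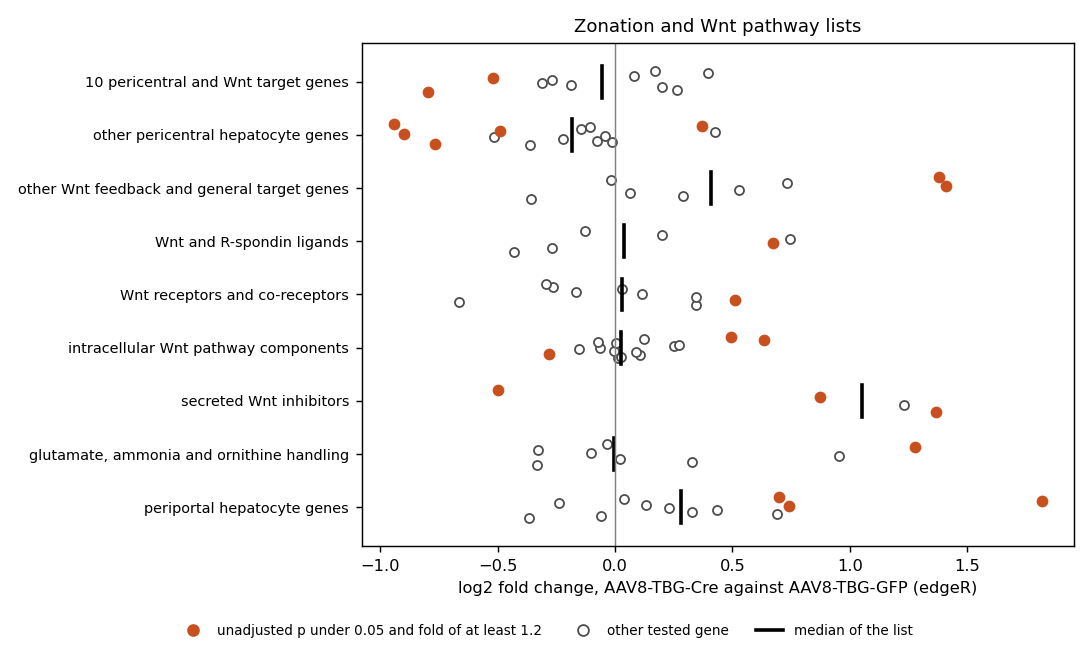
log2 fold change of Cre against GFP livers (horizontal axis, edgeR, 3 mice per group) for the tested genes of each list; filled points passed an unadjusted p under 0.05 with a fold of at least 1.2, open points did not, and black bars are medians. The 10 pericentral and Wnt target genes have a median of -0.05, with Slc1a2 and Glul filled on the left, and Cdh1 of the periportal list is the farthest point on the right at 1.82.

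The neighbours of Glul, Oat and Slc1a2 in nitrogen metabolism and the periportal genes complete the zones. Of 12 genes of glutamate, ammonia and ornithine handling 8 were tested and 1 rose, about the 12.0% of all tested genes called higher. Got1, the cytosolic aspartate aminotransferase, measured 130, 202 and 103 CPM in GFP livers and 427, 216 and 410 CPM in Cre livers (log2 fold change 1.28, SE 0.33, unadjusted p = 0.00485). Aldh18a1 (0.95, unadjusted p = 0.0622) and Glud1 (-0.33, unadjusted p = 0.0716, edgeR) did not pass. DESeq2 gave adjusted p-values of 0.00294 for Got1, 0.252 for Aldh18a1 and 0.118 for Glud1. For the form of the name 5 of these 8 genes were lower, opposite to Oat, against 7.79% of all tested genes. Of 12 periportal genes 3 rose in Cre livers and none fell, against 12.0% of all tested genes higher and 8.41% lower. Cdh1, E-cadherin, rose from 17.1 to 23.9 CPM to 62.7 to 76.2 CPM (log2 fold change 1.82, SE 0.15, adjusted p = 0.0149, edgeR), and its adjusted call held in 4 of the 6 fits without 1 liver. Cdh1 is also expressed by cholangiocytes, whose 9 markers rose, and the part of those cells in its rise was not tested. Cps1, the first enzyme of the urea cycle, rose by a log2 fold change of 0.74 (SE 0.27, unadjusted p = 0.0248), and Aldh1b1 by 0.70 (SE 0.27, unadjusted p = 0.0342, edgeR), both calls that were lost in 4 of the 6 fits without 1 liver. The call of Cps1 was also lost with the replicate block. DESeq2 gave adjusted p-values of 0.0410 for Cps1 and 0.119 for Aldh1b1. The median over the 12 periportal genes was 0.28, and it was -0.12 without Cre replicate 1.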

How the data were processed

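Liver RNA of 6 male mice was sequenced on a DNBseq platform. The authors deposited expected counts and FPKM per RefSeq transcript and a table of FPKM per gene. The submitters' processing notes name HISAT2, Bowtie2, RSEM and mm10, whereas the methods name STAR, HTSeq and DESeq2; versions are not given in the sources used here, and which tool made which deposited value is not stated. The expected counts of a gene's transcripts were added up and rounded. Genes passing filterByExpr were TMM-normalized and tested by quasi-likelihood F-test (edgeR 4.0.16, R 4.3.3), with Benjamini-Hochberg adjustment over 13431 genes. DESeq2 1.42.0 and limma 3.58.1 on log2(FPKM + 1) served as alternatives, with a filter of 0.5 FPKM in at least 3 libraries. The procedure was tested on simulated data. Expected counts share reads between transcripts by estimation, so isoform shares are less certain than gene totals, and FPKM values were not rescaled between libraries for composition. Depth was 20356459 to 21010524 expected counts per library. The edgeR and limma p-values set the vector difference against the spread between the 3 mice of a group, estimated with information shared across genes.

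The 10 genes and all 16 comparison lists were chosen with earlier results of these data known, so no list received a test of its own. All 10 genes are named. Of each other list, apart from the cell type markers, the genes with an adjusted p under 0.05 are named (at most 5). Where fewer than 3 passed, those with the smallest p up to 3 are named. The cell type marker lists are given mainly as counts called and, for some, as summed levels. Other genes (Slco1b2, Cyp7a1, Sds, Wnt9b, Rspo3, 1110028F11Rik, Spp1, Pdgfrb, Col1a1, Col1a2, Col3a1, Lrat, Reln and Acta2) were named after their values were seen. Listed genes under 1 CPM on average in both groups are given only as counts. Replicates were distinct libraries. Gene positions and promoter windows came from RefSeq tables of GRCm38.p6, the patch series of mm10, in which 99.7% of gene IDs matched. An exact two-sided permutation test was run on log2 CPM per gene.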

Additional observations from a re-analysis of the deposited data

How the results depend on the processing

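Of 160 log2 fold changes, 16 alternatives for each of the 10 genes, 143 kept their sign and their side of the unadjusted threshold, 7 lost the call, 3 gained it and 7 changed sign. The sign changes were those of Lgr5 (0.006, 0.008 and 0.006 with limma on log2(FPKM + 1), log2(FPKM + 0.1) and log2(FPKM + 1) without a filter, and 0.106 without AAV8-TBG-GFP replicate 3), Tbx3 (0.034 without AAV8-TBG-Cre replicate 1), Rhbg (-0.002 without AAV8-TBG-Cre replicate 3) and Znrf3 (-0.053 with the library name form in the fit), none of them called. Without 1 liver each, the log2 fold changes ran from -0.4 to 0.106 for Lgr5, from -0.555 to 0.034 for Tbx3 and from -0.002 to 0.139 for Rhbg. Of the 10 genes 2 were called at the unadjusted threshold, against 0 with each of these 3 limma fits and 1 at a fold of at least 1.5; leaving out 1 liver gave 1 to 4, 1 of them when AAV8-TBG-GFP replicate 3 and 4 when AAV8-TBG-Cre replicate 1 was left out. By the adjusted p 0 were called, as in every fit that left out 1 liver, and 2 with DESeq2. Of 429 alternative values for 27 other genes (Mettl14 and genes of the lists), 371 kept sign and side, 46 lost the call, 12 gained it and 0 changed sign.

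Over all genes 1618 were higher and 1129 lower at the unadjusted threshold. The split was 1880 and 365 with limma on log2(FPKM + 1), 1995 and 376 on log2(FPKM + 0.1), 2019 and 364 without a filter, and 1004 and 1061 after centring on the median, so the scale decides the balance. At a fold of at least 1.5, 407 genes were lower. Leaving out 1 liver gave 1108 to 2018 higher and 735 to 1712 lower genes, 735 without AAV8-TBG-GFP replicate 1, and 1712 as well as 2018 without AAV8-TBG-Cre replicate 1. By the adjusted p 125 genes were called, against 1157 with DESeq2, 372 without a filter, 76 with at least 10 counts in every library, 214 with the form of the library name, 22, 27, 9 and 51 with the limma fits in the order above, and 0 to 928 without 1 liver (0 without replicate 2 of either vector, 7 without AAV8-TBG-GFP replicate 1, 16 without its replicate 3, 17 without AAV8-TBG-Cre replicate 3, 928 without its replicate 1). The causes of these shifts were not tested.

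Replicate numbers are shared between the groups, but same-numbered livers did not deviate together (correlations over genes of 0.009, -0.263 and 0.209), so the numbers were not taken as pairs. With the replicate block 2 of the 10 genes, Glul and Slc1a2, were called at the unadjusted threshold and 0 by the adjusted p, with 1504 higher, 1093 lower and 7 genes by the adjusted p overall. Depth put Axin2, Lgr5, Rhbg and Znrf3 at 159 to 498 expected counts per liver, the lowest of the 10, but the SE did not follow depth, with 0.119 for Rhbg against 0.27 for Glul.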
